A study of Mus musculus with 14 samples.

Results

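The thymus of ovariectomised mice after 6 days of estradiol was compared with the thymus of such mice before any treatment. The 4 arrays of this comparison, 2 from estradiol day 6 and 2 from the control at day 0, were chosen by their titles from the 14 arrays of the study. All mice were female C57BL/6, an inbred strain, ovariectomised at 26 days of age and put on a phytoestrogen-free diet before treatment began at 30 days of age. The estradiol day 6 mice had received a daily subcutaneous injection of 125 ng of estradiol in 0.02 ml of corn oil. The day 6 mice were also set against mice injected in the same way for 2 or 3 days and against mice given genistein, an estrogen-like isoflavone of soy, in the diet at 1500 ppm for 6 days. The control mice were ovariectomised and on the same diet, and were sampled untreated on day 0. Each group had 6 mice, and each of its 2 arrays held thymus RNA pooled from 3 of them. The labels describe the pools as separate biological replicates, and p-values here measure the spread between such pools. Untreated or oil-injected mice of day 6 were not analysed here. The hormone, the injections with oil and the 6 days of growth therefore cannot be told apart.

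The thymus is the organ in which T cells mature. Most of its cells are cortical thymocytes that carry both Cd4 and Cd8, and they are held in a mesh of epithelial cells that supply Ccl25, Cxcl12, Notch ligands and selecting peptides. Macrophages remove the many thymocytes that die there. Estrogen is known to shrink the organ, with loss of cortical thymocytes, and its receptors are found in both epithelial cells and thymocytes. RNA from whole tissue does not tell a change in the number of cells of a type from a change in the RNA per cell.

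The signals are Affymetrix MAS5 values, a brightness per probe set, and the 4 arrays shared one scale as deposited, with 2%-trimmed means of 150.036 to 150.039. The 2 estradiol day 6 arrays were closer to each other (r = 0.986 across probe sets) than the 2 control arrays (r = 0.965). Control replicate 1 was closer to both estradiol day 6 arrays (r = 0.977 and 0.978) than to control replicate 2. Control replicate 2 had the lowest mean r with the other arrays of the study, 0.959. The typical (median) SD of a probe set within the group was 0.0842 on the log2 scale at estradiol day 6 and 0.157 in controls. Gapdh probe sets at the 3' and 5' ends, whose ratio grows in degraded RNA, gave ratios of 0.950 and 0.945 at estradiol day 6, against 0.944 and 0.894 in controls. The same ratio for actin was 1.40 and 1.34 at estradiol day 6, against 1.27 and 1.30 in controls, higher on both estradiol day 6 arrays, and its part in the results was not tested. Of 22690 probe sets, 13575 were bright enough to be tested, standing for 8214 genes.

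Genes that define thymocytes were bright in both groups and did not pass the test. Rag1, a subunit of the recombinase that cuts the T cell receptor genes, had signals of 2210.4 and 2148 on the estradiol day 6 arrays, against 2446 and 2313 on the control arrays (log2 change -0.13, limma, adjusted p = 0.773). The coreceptor Cd4 had signals of 767 and 666 at estradiol day 6, against 765 and 667 in controls (log2 change 0.00, limma, adjusted p = 0.999). Cd8a had 1783 and 1591 at estradiol day 6, against 1986 and 1679 in controls (log2 change -0.12, limma, adjusted p = 0.726). None of the 3 passed the test, and for Cd4 and Cd8a the arrays of the groups overlapped. Prss16, a serine protease of cortical epithelium, had 2845 and 2726 at estradiol day 6, against 2056 and 1928 in controls (log2 change 0.48, limma, adjusted p = 0.0947). Foxn1, the transcription factor that thymic epithelium requires, had 94.6 and 105.8, against 95.8 and 85.9 (log2 change 0.12, limma, adjusted p = 0.878). Both labelled groups carried these markers of thymus.

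A probe set is called changed below at an adjusted p under 0.05 in limma, a linear model fitted over all 14 arrays. Of 13575 probe sets, 89 were called (0.656%), of which 83 were higher at estradiol day 6 (0.611%) and 6 lower (0.0442%). Before adjustment 1903 (14%) had a p under 0.05, and the median log2 change of all probe sets was 0.002. The 77 called probe sets with 1 gene symbol stood for 73 genes, 68 higher and 5 lower. Changes of more than 2-fold were reached by 54 of the probe sets called higher and by 1 of those called lower. In all 89 the arrays of the groups did not overlap, an order found among all tested probe sets in 24.9% with estradiol day 6 above and in 24.6% with it below. The number of calls rested on few arrays: it was 0 without estradiol day 6 replicate 2, 13 without estradiol day 6 replicate 1, 17 without control replicate 2 and 367 without control replicate 1. It was 53 without either array of estradiol day 3, a group that enters the fit of this comparison through the variance. Its values also enter the mean level that decides which probe sets are tested, and that set was kept the same in these counts.

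**Figure D1:**
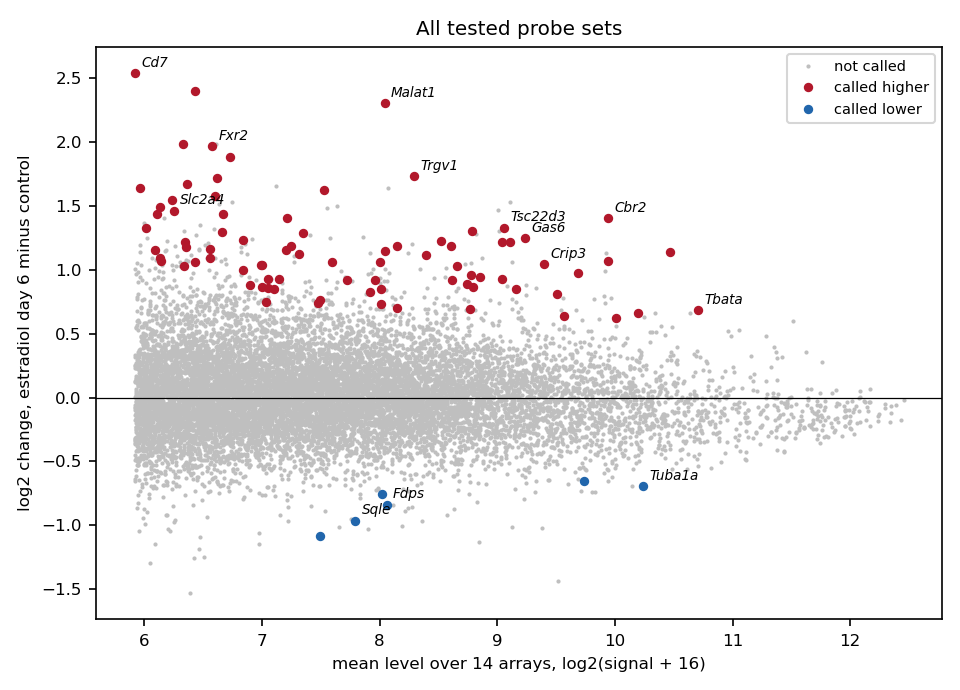
Each point is 1 of the 13575 tested probe sets, with its mean level over the 14 arrays as log2(signal + 16) on the horizontal axis and its log2 change, estradiol day 6 minus control, on the vertical axis. Red points are the 83 called higher, blue points the 6 called lower and grey points the rest, and the calls lie mostly above the zero line at low and middle levels.

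A gene is represented here by its brightest probe set unless another is named. By that rule 54 of 8214 genes (0.657%) rose and 3 (0.0365%) fell. Fold changes are on the scale of log2(signal + 16), which understates the change of dim genes. The 20 largest rises and the falls are described by what the genes do, with the signals of all 4 arrays. They were taken only where the groups do not overlap, so statements below that their groups lie apart add no support.

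The rises were led by Cd7, and a γ chain segment of the T cell receptor was among the largest. Cd7, a surface glycoprotein of T cells, natural killer cells and their precursors, had signals of 137 and 131 on the estradiol day 6 arrays, against 5.70 and 14.5 on the control arrays. Its fitted change was 5.83-fold (log2 2.54 ± 0.447 SE, limma, adjusted p = 0.0224). Both control signals lay below the added constant of 16, and the change depends on that constant: it was 1.42 on the log2 scale with a constant of 64. With a constant of 1 Cd7 was too dim to be tested. Its mean level over the 14 arrays, 5.9203, lay barely above the lowest level tested, 5.919. Without its estradiol day 6 signals that mean would lie below, so Cd7 was tested only through the arrays where it is high. Trgv1, a variable segment of the γ chain of the T cell receptor used by γδ T cells, had 634 and 653 at estradiol day 6, against 180.3 and 183 in controls, a rise of 3.33-fold (log2 1.74 ± 0.225, limma, adjusted p = 0.00304). The estradiol day 6 pools were close to each other for both genes and stood far above either control pool. A less bright probe set of Trgv4, another γ segment of close sequence, rose by 1.22 (limma, adjusted p = 0.00691), while its brightest had a change of 0.80 that missed the threshold (limma, adjusted p = 0.0753). These probe sets can match related γ segments, so their signals are not specific to 1 segment.

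Cd7 and Trgv1 belonged to a list of 16 tested genes of γδ, natural killer and innate-like T cells. In this list 2 rose and 0 fell, with a median log2 change of 0.27 beside 0.002 for all probe sets. Among all 8214 genes 0.657% rose and 0.0365% fell, shares that stand beside each list here and below. Of the 2 that rose, Cd7 carries the limit given above, that it was tested only through the estradiol day 6 arrays. Next in size were Fcer1g, a signalling adaptor of Fc and natural killer receptors, at 1.18 (limma, adjusted p = 0.0788), and Nkg7, a granule protein of cytotoxic cells, at 0.77 (adjusted p = 0.129). Neither passed. Summed signals here and below include list genes too dim to test. All lists were written with earlier results of these data known, so their counts and medians are descriptions and not independent support. The summed signal of the 20 listed genes on the array was 3451 and 3819 at estradiol day 6, against 2451 and 2666 in controls.

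Several genes of cortical epithelium rose. Pax1, a transcription factor of the pharyngeal pouch from which the thymus forms, had signals of 572 and 635 at estradiol day 6, against 307 and 200.5 in controls, a rise of 2.34-fold (log2 1.23 ± 0.194, limma, adjusted p = 0.0122). Enpep, the glutamyl aminopeptidase known on mouse cortical epithelium as the antigen Ly51, had 417 and 483, against 195 and 182, a rise of 2.28-fold (log2 1.19 ± 0.180, limma, adjusted p = 0.00948). Trp63, the p53 relative that keeps epithelial stem cells, had 239 and 232, against 109 and 90.3, a rise of 2.18-fold (log2 1.12 ± 0.177, limma, adjusted p = 0.0122). For all 3 both estradiol day 6 arrays lay well above the higher control array. The structural keratin Krt8 rose by 0.62 and Tbata, a protein named for thymus, brain and testis, by 0.69, both at high signals: 2412 and 2263 at estradiol day 6 for Tbata, against 1373 and 1522 in controls. Crip3, a LIM protein abundant in thymus, had 1026 and 988 at estradiol day 6, against 491 and 468 in controls (log2 1.05 ± 0.126, limma, adjusted p = 0.00211).

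The list of cortical epithelium, with 15 tested genes, does not hold Enpep or Crip3. In it 4 rose (Pax1, Trp63, Tbata and Krt8) and 0 fell, beside 0.657% and 0.0365% of all genes. All 15 had a change above 0 where 50.4% of all probe sets did, and the median was 0.52. The summed signal of the 17 listed genes on the array was 17280 and 16909 at estradiol day 6, against 11854 and 11790 in controls. A dimmer probe set of Cxcl12, the chemokine that draws precursors into the cortex, rose by 0.94 (limma, adjusted p = 0.0131), and its brightest, at 0.55, did not pass (adjusted p = 0.0754). In the list of medullary epithelium 0 of 12 genes were called, with a median of 0.16 and 7 above 0. The largest change there was that of Aire, the regulator of tissue antigen expression, at 0.67 (limma, adjusted p = 0.175). The difference between the lists was not tested. Dsc2, a cadherin of desmosomes, rose by 1.09 at its brightest probe set (limma, adjusted p = 0.0439), and its other had a change of 0.26 (adjusted p = 0.729). Dsp, the desmosomal plaque protein, rose by 0.86 at 1 probe set (limma, adjusted p = 0.0302), while its brightest, at 0.36 (adjusted p = 0.333), and a dim one, at 0.38 (adjusted p = 0.559), did not pass. Ctnnd1, the p120 catenin that binds cadherins, rose by 1.16.

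Genes of macrophages and of the removal of dying cells rose in the same arrays. Gas6, the ligand that bridges dying cells to the receptors Mertk and Axl, had signals of 808 and 939 at estradiol day 6, against 422 and 302 in controls, a rise of 2.37-fold (log2 1.25 ± 0.225, limma, adjusted p = 0.0234). Hmox1, the heme oxygenase that breaks down heme, had 98.9 and 100.2, against 45.8 and 26.0, a rise of 2.27-fold (log2 1.18 ± 0.214, limma, adjusted p = 0.0242). Neither gene had a control array near the estradiol day 6 arrays. Mertk itself, the receptor for Gas6 on macrophages, rose by 1.03 (limma, adjusted p = 0.0415), and the iron exporter Slc40a1 by 1.06 (adjusted p = 0.0122). The adhesion molecule Vcam1 rose by 0.85, while its other tested probe sets, at 0.37 and 0.51, did not pass. Csf1r, the receptor for macrophage growth factor, rose by 0.69. Other tested probe sets of Csf1r, at 0.79 and -0.09, did not pass.

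In the list of macrophages and dying-cell clearance 6 of 22 tested genes rose and 0 fell, beside 0.657% and 0.0365% of all genes. A change above 0 was found in 20, beside 50.4% of all probe sets, and the median was 0.60. The summed signal of the 26 listed genes on the array was 7998 and 8745 at estradiol day 6, against 5568 and 6241 in controls. Some defining members did not pass. Lyz2, the lysozyme of mature macrophages and neutrophils, had 927 and 889 at estradiol day 6, against 970 and 1207 in controls (log2 change -0.25, limma, adjusted p = 0.469). Adgre1, the F4/80 antigen, had 153.5 and 188, against 183.5 and 153 (log2 change 0.02, limma, adjusted p = 0.971). These 2 were chosen after their values were seen. Among 11 genes of MHC class II presentation 1 rose, H2-Ab1 by 0.64 (limma, adjusted p = 0.0434), with a median of 0.47. Among 13 genes of cathepsins and lysosome 0 were called, with a median of 0.37 and 12 above 0. The median was 0.28 for 13 genes of MHC class I processing, all above 0 and 0 called.

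Some genes used by fat cells rose. Slc2a4, the insulin-responsive glucose transporter, had signals of 55.6 and 75.5 at estradiol day 6, against 11 and 15.9 in controls, a rise of 2.76-fold (log2 1.46 ± 0.193, limma, adjusted p = 0.00317). Its control signals lay below the constant of 16, and the log2 change was 2.21 with a constant of 1 and 0.74 with 64. A dimmer probe set of Slc2a4, below the level tested, showed no such rise. It had 39.1 and 36 at estradiol day 6, against 41 and 30.3 in controls, and its groups overlapped. Cebpa, a transcription factor of fat and myeloid cells, had 206 and 199, against 114 and 54.8 (2.28-fold, log2 1.19 ± 0.238, limma, adjusted p = 0.0397). Lpl, the lipase that frees fatty acids from lipoproteins, had 516 and 546, against 252 and 252.5 (2.04-fold, log2 1.03 ± 0.183, limma, adjusted p = 0.0228). For each of the 3, by its brightest probe set, the arrays of the groups did not overlap, though the 2 Cebpa controls lay far from each other. Cebpa kept its call in 3 of 10 other settings of the processing. Of 14 tested genes in the adipocyte list 3 rose and 0 fell, beside 0.657% and 0.0365% of all genes. All 14 were above 0, beside 50.4% of all probe sets, and the median was 0.61. Scd1, which makes monounsaturated fatty acids, had the largest change among those not called, 1.53 (limma, adjusted p = 0.0645).

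In 8 of the 14 both estradiol day 6 arrays lay above both control arrays, an order found in 24.9% of all tested probe sets. In the other 6, Adipoq among them, the arrays overlapped. Adipoq, a hormone of fat cells, had 100.3 and 129 at estradiol day 6, against 64.2 and 128 in controls (log2 change 0.28, limma, adjusted p = 0.789), and leptin (Lep) had 5.4 and 4.0, against 5.6 and 7.8, below the level tested. Adipoq and Lep were chosen after their values were seen. The summed signal of the 19 listed genes on the array was 4297 and 4073 at estradiol day 6, against 2257 and 2372 in controls. The part of adherent fat in these values was not tested. In the list of fatty acid synthesis and desaturation 0 of 15 genes were called, with a median of 0.16 and 11 above 0. Outside these lists, Pltp, which transfers phospholipids between lipoproteins, rose by 0.97 and Abca1, the exporter of cellular cholesterol, by 0.92. Abcc3, an exporter of organic anions, had 68.0 and 72.3 at estradiol day 6, against 26.0 and 8.0 in controls, a rise of 2.71-fold (log2 1.44 ± 0.272, limma, adjusted p = 0.0302). The size was 2.19 with a constant of 1 and 0.74 with 64.

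Cholesterol synthesis was the pathway with 2 of the 3 falls. Sqle, the epoxidase that commits squalene to sterols, had signals of 186 and 144 at estradiol day 6, against 345 and 325 in controls, 0.513 of the control level (log2 change -0.96 ± 0.161, limma, adjusted p = 0.0175). Fdps, which makes farnesyl diphosphate, had 239.7 and 198, against 384 and 422, 0.559 of the control level (log2 change -0.84 ± 0.162, limma, adjusted p = 0.0339). In both, each estradiol day 6 array lay below each control array by a wide margin. Of 17 tested genes of the pathway 0 rose and 2 fell, beside 0.657% and 0.0365% of all genes. The median was -0.34, and 5 had a change above 0, beside 50.4% of all probe sets. Cyp51, the lanosterol demethylase, at -1.15 (limma, adjusted p = 0.0740), and Msmo1, a sterol methyl oxidase, at -1.03 (adjusted p = 0.166), had larger changes but missed the threshold. The other fall was that of Tuba1a, an α-tubulin, with 771 and 878 at estradiol day 6, against 1506 and 1198 in controls (log2 change -0.70 ± 0.146, limma, adjusted p = 0.0484). Among 17 genes of tubulins and the actin cytoskeleton it was the 1 called.

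Tsc22d3, the leucine zipper protein induced by glucocorticoids, had signals of 682 and 722 at estradiol day 6, against 253 and 287 in controls, a rise of 2.52-fold (log2 1.33 ± 0.197, limma, adjusted p = 0.00818). A dimmer probe set of it rose by 0.89 and the dimmest had a change of -0.09. In the list of 20 tested glucocorticoid-responsive genes it was the 1 called, while all 20 had a change above 0 and the median was 0.55. The metallothioneins Mt1 and Mt2, which bind zinc and copper, had changes of 1.13 (limma, adjusted p = 0.0947) and 0.91 (adjusted p = 0.0645), and Per1, a clock gene, one of 0.82 (adjusted p = 0.295). Klf9, a transcription factor that glucocorticoids induce, rose by 2.40 (limma, adjusted p = 0.00211) at a dim probe set with 98.9 and 147 at estradiol day 6, against 9.80 and 10.2 in controls. These control signals lie below the constant of 16, and the change was 3.47 with a constant of 1 and 1.33 with 64. Its brightest, with a change of 0.61, did not pass (limma, adjusted p = 0.0765). In the list of 24 genes of oxidative stress and metallothioneins 2 rose, Hmox1 and the quinone reductase Nqo1 (0.86), and the median was 0.26.

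Some immunoglobulin genes rose, others did not, and markers of mature B cells did not pass the test. Iglv1, a variable segment of the λ light chain, had signals of 239.9 and 218 at estradiol day 6, against 63.0 and 53.6 in controls, a rise of 3.30-fold (log2 1.72 ± 0.209, limma, adjusted p = 0.00211). Jchain, which joins the units of IgM and IgA, had 491 and 402, against 163.5 and 223, a rise of 2.22-fold (log2 1.15 ± 0.198, limma, adjusted p = 0.0200). Both genes had estradiol day 6 arrays well above the controls. Ighm, the μ heavy chain, was called at 2 dimmer probe sets with changes of 1.99 (limma, adjusted p = 0.00124) and 1.63 (adjusted p = 0.00211), while its brightest, at 0.53, did not pass (adjusted p = 0.139). Igha, the constant region of IgA, lay on the other side, with 111 and 192 at estradiol day 6, against 262 and 288 in controls (log2 change -0.84, limma, adjusted p = 0.164), and its second probe set was at -1.03 (adjusted p = 0.0871). Igha is in none of the lists, neither probe set passed, and it was chosen after its values were seen. Of 12 tested genes in the list of B and plasma cells 2 rose and 0 fell, beside 0.657% and 0.0365% of all genes. A change above 0 was found in 7, beside 50.4% of all probe sets, and the median was 0.07. The B cell receptor subunit Cd79b had 134 and 124 at estradiol day 6, against 127 and 138 in controls, and Ms4a1, the B cell antigen CD20, 81.1 and 84.4, against 120.4 and 70.3, and their groups overlapped. Those 2 were chosen after their values were seen. The summed signal of the 18 listed genes on the array was 5626 and 5603 at estradiol day 6, against 4655 and 4774 in controls. The part of B and plasma cells in the result was not tested.

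The remaining large rises are given one by one, and a shared role was not tested. Malat1, a long noncoding RNA of the nucleus, had signals of 739.6 and 643 at estradiol day 6, against 137 and 117 in controls, a rise of 4.95-fold (log2 2.31 ± 0.408, limma, adjusted p = 0.0227). Its 4 other probe sets lay at 0.58, 0.70, 1.66 and 1.98 and were not called. Fxr2, a paralog of the RNA-binding protein lost in fragile X syndrome, had 168 and 145, against 28.7 and 27.1 (3.92-fold, log2 1.97 ± 0.372, limma, adjusted p = 0.0302). Its change was 2.44 with a constant of 1 and 1.26 with 64. Cbr2, a carbonyl reductase, had 1512 and 1628, against 615 and 553 (2.65-fold, log2 1.40 ± 0.138, limma, adjusted p = 0.00118). In each of the 3 the controls lay close together and far below.

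Lifr, the receptor for leukemia inhibitory factor, had 794 and 817 at estradiol day 6, against 309 and 326 in controls (2.47-fold, log2 1.30 ± 0.258, limma, adjusted p = 0.0388). Alcam, an adhesion molecule and ligand of the T cell protein Cd6, had 133.5 and 145, against 51.5 and 43.1 (2.46-fold, log2 1.30 ± 0.230, limma, adjusted p = 0.0227). Cmah, which hydroxylates the sialic acid of cell surfaces, had 170.0 and 167, against 66.0 and 59.1 (2.35-fold, log2 1.23 ± 0.207, limma, adjusted p = 0.0176). Here too the pools of each group were alike and the groups apart. Khdc1a, a KH domain protein, had 83.6 and 113, against 29.2 and 29.2 (log2 1.33 ± 0.237, limma, adjusted p = 0.0228). Without its estradiol day 6 signals the mean level of Khdc1a, 6.016, would lie below the lowest level tested, 5.919. Ccdc9 had 131 and 116, against 46.1 and 26.4 (log2 1.44 ± 0.220, limma, adjusted p = 0.00983). Snhg11, a host gene of small nucleolar RNAs, had 119.7 and 126, against 47.5 and 40.2 (log2 1.22 ± 0.239, limma, adjusted p = 0.0372). Among 13 genes of the interleukin 6 family and of signals tied to thymic involution Lifr was the 1 called, 12 had a change above 0 and the median was 0.28.

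**Figure D2:**
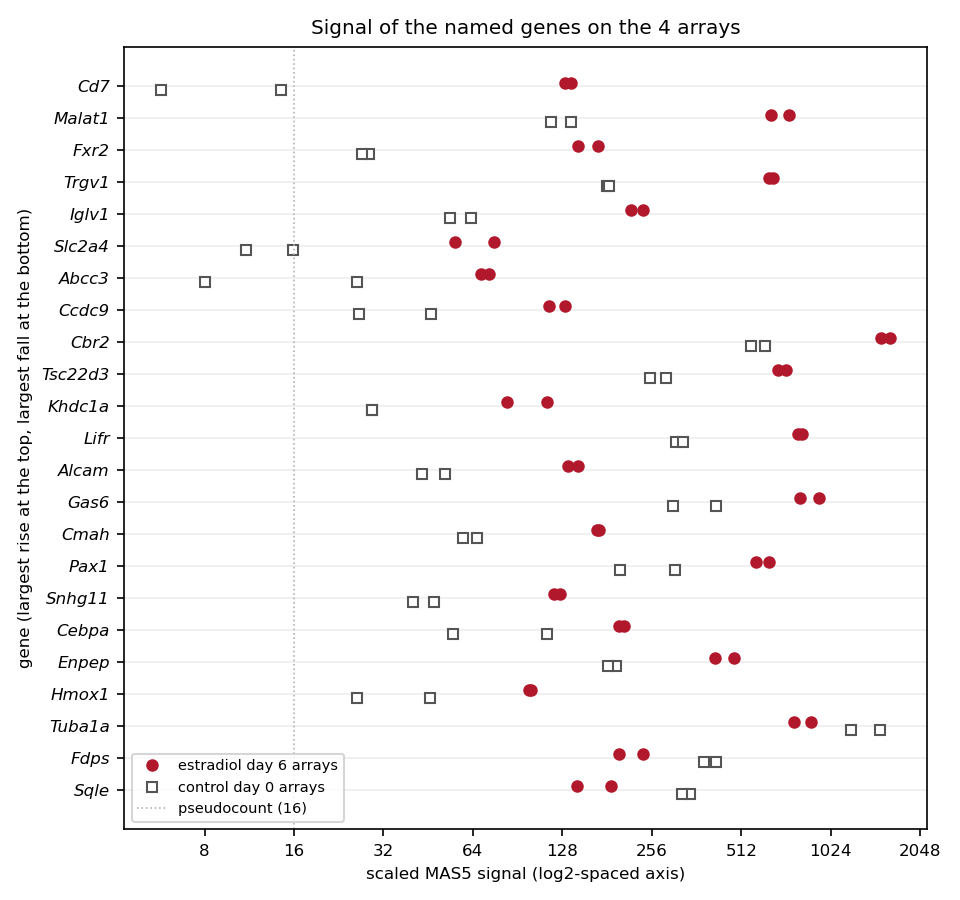
Scaled MAS5 signals on a log2-spaced axis for the 20 genes with the largest called rises and the 3 called falls, ordered by change. Filled circles are the 2 estradiol day 6 arrays and open squares the 2 control arrays. Genes were taken only where the groups do not overlap, and the Cd7 and Slc2a4 controls lie at or below the dotted line at 16.

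Smaller called rises, given by their log2 change, included Zfp36l2 (1.14), which marks mRNAs for decay, the prostaglandin dehydrogenase Hpgd (1.12), the purine-oxidising enzyme Xdh (1.09), the homeodomain factor Isl1 (1.06), the secreted protease Htra1 (1.04), the receptor Notch2 (0.85), Uba7 (0.85), which activates the ubiquitin-like Isg15, and Sirpa (0.76), the receptor for Cd47. Igfbp5, a binding protein for insulin-like growth factors, had 203 and 270.3 at estradiol day 6, against 101.2 and 91.5 in controls, a rise of 2.23-fold (log2 1.16 ± 0.198, limma, adjusted p = 0.0199). Another probe set of Igfbp5 had a change of -0.67 (limma, adjusted p = 0.421). It was the 1 gene called of 27 in the list of fibroblasts and matrix (median 0.31, 21 above 0) and of 11 in that of insulin-like growth factors (median 0.20). Among 8 genes of neutrophil granules 0 were called, all were above 0 and the median was 0.48. The summed signal of the 13 listed genes on the array was 1765 and 1794 at estradiol day 6, against 1170 and 1117 in controls. Ngp, a granule protein of neutrophil precursors, was the largest at 0.84 (limma, adjusted p = 0.143). Their part in the other results was not tested.

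Genes of cell division and of double-positive thymocytes had no call by their brightest probe sets. Of 30 genes of mitosis and G2 0 were called, 27 had a change of 0 or less and the median was -0.27, with the spindle kinase Aurka at -0.69 (limma, adjusted p = 0.0753) and the cell cycle kinase Cdk1 at -0.52 (adjusted p = 0.112). Of 37 genes of DNA replication 0 were called, with a median of -0.15 and 8 above 0. Heat shock proteins had a median of -0.23 over 23 genes with 0 calls, although Hspe1, a mitochondrial chaperonin, fell by 0.76 (limma, adjusted p = 0.0438) at a probe set other than its brightest. Among 18 genes of double-positive thymocytes 0 were called and the median was -0.13, and among 18 of early thymocytes and the Notch pathway 0 were called and the median was 0.28. Among the early thymocyte genes Il2ra, the interleukin 2 receptor chain of early thymocytes, rose by 1.67 (limma, adjusted p = 0.00239) at its dimmer probe set and had 0.74 at the brighter (adjusted p = 0.253). Ccr9, the receptor for Ccl25, fell by 0.66 at a dimmer probe set (limma, adjusted p = 0.0439), and its brightest, at -0.43, did not pass. Medians were -0.12 for 21 cytosolic ribosomal proteins, -0.15 for 24 genes of oxidative phosphorylation and -0.15 for 27 of the proteasome, with 0 calls in each. For 25 interferon-response genes the median was 0.30 with 0 calls by brightest probe set.

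**Figure D3:**
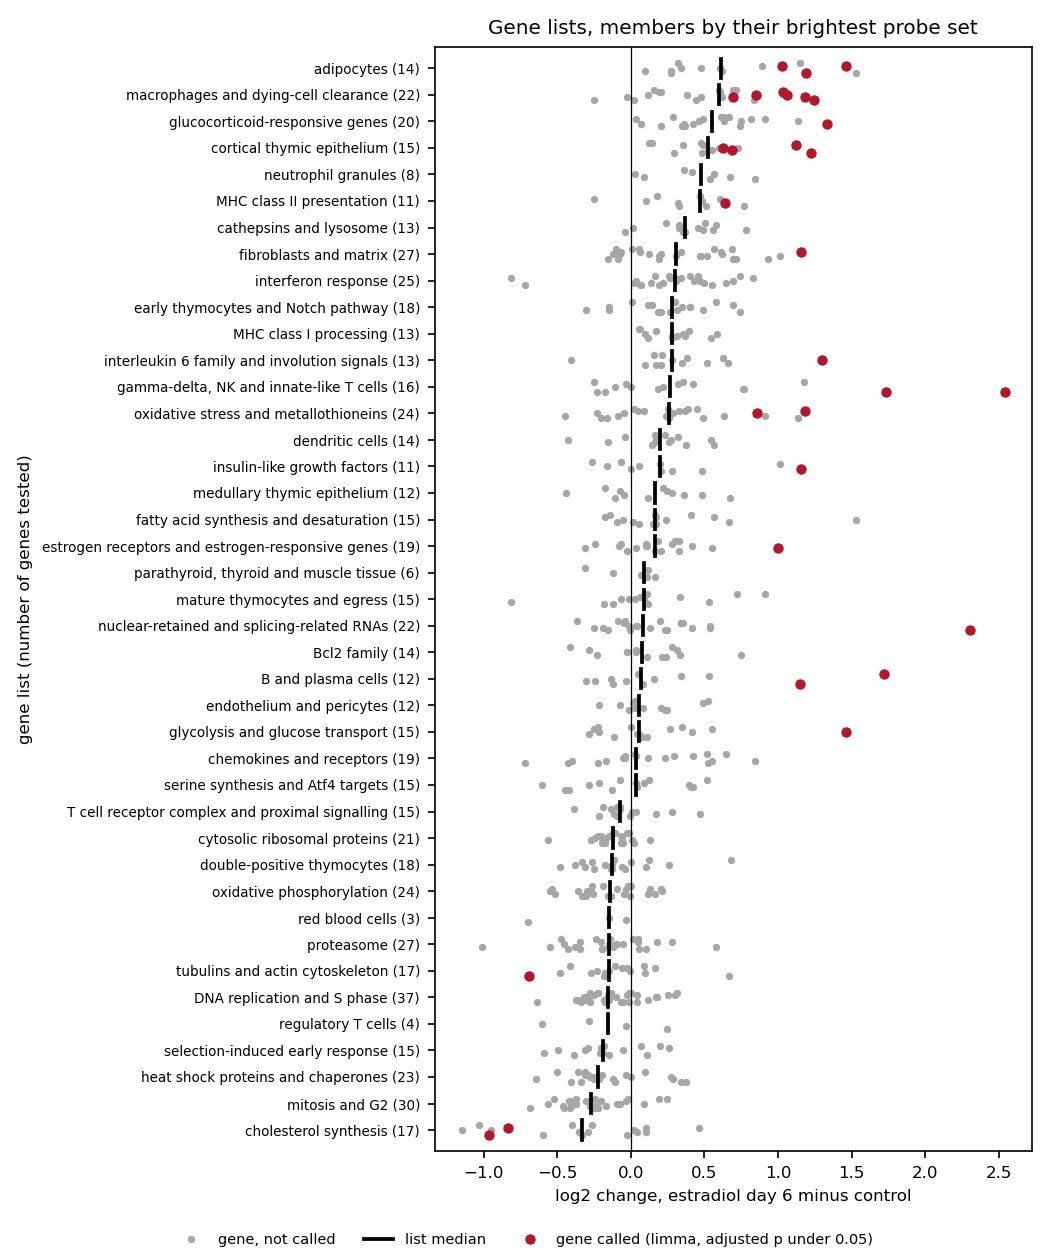
Log2 change, estradiol day 6 minus control, of the tested members of 41 gene lists, each gene by its brightest probe set, with the number tested in brackets and lists ordered by their median (black bar). Red points are called genes; the 6 calls in the macrophage list, 4 in cortical epithelium and 3 in adipocytes lie above 0, and the 2 in cholesterol synthesis lie below it.

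The receptors for estradiol were too dim to test. Esr1 had signals of 13.2 and 17.1 at estradiol day 6, against 6.20 and 28.2 in controls, and Esr2 had 9.0 and 18.2, against 23.0 and 16.3. Pgr, the progesterone receptor and an estrogen target in the uterus, had 14.9 and 16.8, against 10.6 and 35.3. All 3 overlapped between groups. Of 19 tested genes in the list of estrogen receptors and estrogen-responsive genes 1 rose, Cyp1b1, the cytochrome that hydroxylates estradiol, with 134 and 164.5 at estradiol day 6, against 69.5 and 62.9 in controls (2.00-fold, log2 1.00 ± 0.200, limma, adjusted p = 0.0391). The median of the list was 0.16.

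Promoters of the called genes were searched for the palindromic site to which estrogen receptors bind. RefSeq promoters (build GRCm38.p6, from 250 bases before to 50 after each start) were given for 49 of the 73 called genes, 64 promoters in all. Both strands were searched. The letters GGTCA, then any 3 bases, then TGACC occurred in 0 of the 64 and in 23 of all 32851 promoters (0.07%). A looser form, GGNCA, any 3 bases and TGNCC, which contains the first, occurred in 1 of the 64, that of Alcam, and in 258 of all (0.785%), and a glucocorticoid form, GNACA, any 3 bases and TGTNC, in 0 and in 156 (0.475%). The 250 bases before the Alcam start are shown as the single match, at chr16:52453082-52453331 on the minus strand, with the match in capitals, 198 to 186 bases before the start.
Alcam: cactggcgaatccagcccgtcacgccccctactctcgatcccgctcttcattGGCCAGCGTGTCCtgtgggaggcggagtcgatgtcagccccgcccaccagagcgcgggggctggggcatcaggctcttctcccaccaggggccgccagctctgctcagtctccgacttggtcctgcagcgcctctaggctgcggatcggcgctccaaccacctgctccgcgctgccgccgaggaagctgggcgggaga
The match describes these letters only, and a promoter without one says nothing of the receptor elsewhere.

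The day 6 arrays were next set against the earlier days of the same injections, comparisons that leave out the controls but share the estradiol day 6 arrays with the comparison above. Against estradiol day 2, 0 of 13575 probe sets were called (0%), with 1290 (9.5%) at an unadjusted p under 0.05 in limma. The smallest p-values were those of Vipas39, a trafficking protein, with 159.6 and 182.5 at day 6, against 355 and 381 at day 2 (log2 change -1.04, limma, adjusted p = 0.276), of Tmem37 at -0.91 and of Ctnnd1 at 1.10 (adjusted p = 0.320). Against estradiol day 3, 3 probe sets were called, all higher (0.0221%), with 11 (0.081%) changed by more than 1 on the log2 scale and 49.7% above 0. Iglv1 had 239.9 and 218 at day 6, against 59.3 and 79.9 at day 3 (log2 1.52 ± 0.209, limma, adjusted p = 0.0195). Plvap, which forms the diaphragms of capillary pores, had 89.0 and 118, against 30.4 and 27.5 (log2 1.40 ± 0.184, limma, adjusted p = 0.0185), and the dimmest called probe set of Ighm had 172 and 235.5, against 32.2 and 49.4 (log2 1.95 ± 0.207, limma, adjusted p = 0.00305). The arrays of day 6 and day 3 did not overlap in any of the 3, an order whose share among all probe sets was not counted for these groups. Day 2 lay above day 3 in all of them: Plvap had 122 and 103 at day 2, Iglv1 120.2 and 113 and that Ighm probe set 132 and 124. Plvap at day 2 overlapped with day 6 (log2 change, day 6 minus day 2, -0.11, limma, adjusted p = 0.891), and at day 3 it lay below the control arrays as well. Plvap was not called against control, at 64.1 and 72.8 there (log2 0.49, limma, adjusted p = 0.254). The 2 arrays of day 3 and 1 of day 2 had been deposited at another scale, 1.49 to 2.23 times the common one, and were rescaled. Without day 3 replicate 1 the count against day 3 was 0, without day 3 replicate 2 or day 6 replicate 1 it was 1, and without day 6 replicate 2 it was 0. Against day 2 it was 2 without day 2 replicate 1 and 5 without day 2 replicate 2.

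Against mice of the same day on the genistein diet, 36 probe sets were called (0.265%), 33 higher at estradiol day 6 (0.243%) and 3 lower (0.0221%), where 49.7% of all lay above 0. These groups differ also in the injections with oil. Lifr had 794 and 817 at estradiol day 6, against 248 and 325 at genistein day 6 (log2 1.45 ± 0.258, limma, adjusted p = 0.0436). Trgv1 had 634 and 653, against 160.2 and 306 (log2 1.47 ± 0.225, limma, adjusted p = 0.0183), and Iglv1 239.9 and 218, against 80.4 and 68.2 (log2 1.44 ± 0.209, limma, adjusted p = 0.0132). The groups did not overlap in these genes, and the share of all probe sets with such an order was not counted for this comparison. Malat1 had 739.6 and 643, against 75.1 and 248, and the genistein pools lay far apart (log2 2.18 ± 0.408, limma, adjusted p = 0.0450). Shisa2 had 92.1 and 115, against 23.4 and 30.8 (log2 1.47 ± 0.262, limma, adjusted p = 0.0436). Its mean level, 5.9647, lay near the lowest level tested, 5.919, and would lie below it without the estradiol day 6 signals. Igha was lower than under genistein, with 111 and 192 at estradiol day 6, against 546 and 326 at genistein day 6 (log2 change -1.43 ± 0.263, limma, adjusted p = 0.0436). Slc2a4 had 55.6 and 75.5 at estradiol day 6, against 77.3 and 79.4 at genistein day 6 (log2 change -0.22, limma, adjusted p = 0.65), Sqle 186 and 144, against 206 and 241 (log2 change -0.41, adjusted p = 0.29), and Tsc22d3 682 and 722, against 544 and 581 (log2 change 0.31, adjusted p = 0.52). None of the last 3 passed, and for this comparison they were chosen after their values were seen. The 3' to 5' Gapdh ratio was 1.503 on genistein day 6 replicate 1 and 1.04 on replicate 2, and its part in these calls was not tested. The count was 0 without either estradiol day 6 array, 4 without genistein day 6 replicate 1 and 67 without replicate 2.

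**Figure D4:**
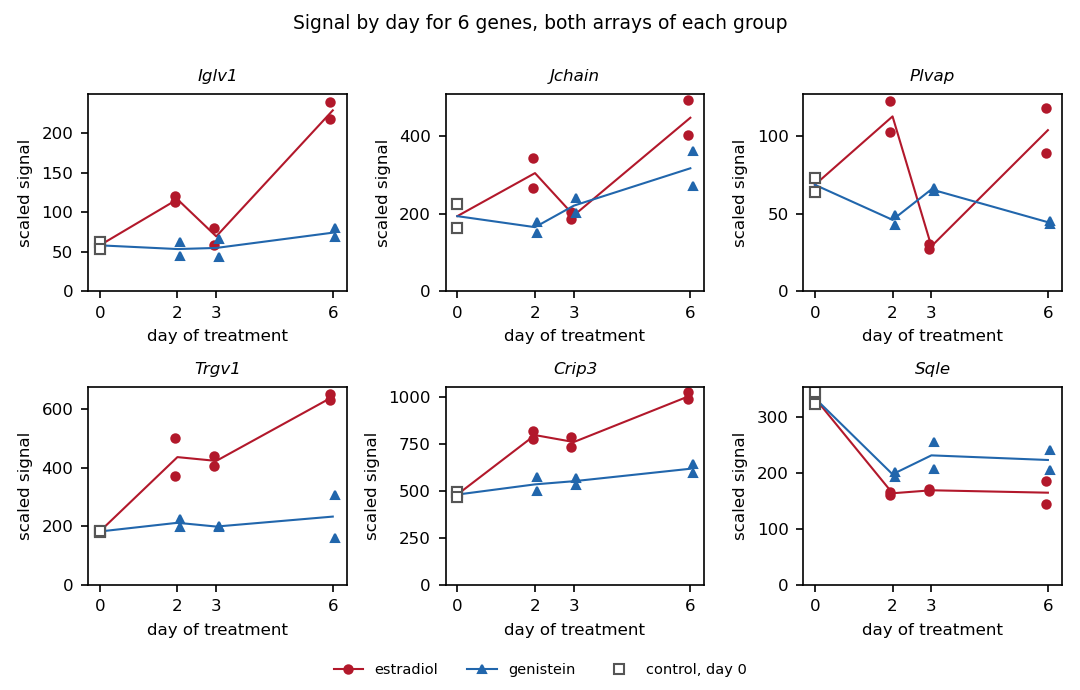
Scaled signal by day of treatment for 6 genes, with both arrays of each group as points and lines through the group means, estradiol in red circles, genistein in blue triangles and the control of day 0 as open squares shared by both lines. Under estradiol, Iglv1 and Plvap are lower at day 3 than at days 2 and 6, with Plvap alike at days 2 and 6 and Iglv1 already above control at day 2, while Sqle is low from day 2 onwards.

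The calls by single probe sets were seldom repeated by others of the same gene. Of the 57 genes called by their brightest probe set 23 had another that was tested, 36 in all. Of these 36, 32 changed in the same direction and 3 were also called, those of Pltp, Tsc22d3 and H2-Ab1. A further 16 genes were called only by a probe set other than their brightest. Probe sets of a gene can lie in different exons or 3' ends, and those of Ddr1, a collagen receptor, gave 1.16 (limma, adjusted p = 0.0339) at the called one and -0.58 (adjusted p = 0.139) at the brightest.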

How the data were processed

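RNA from pooled mouse thymus was measured on 14 Affymetrix arrays. The deposited values are intensities, MAS5 signals computed by the authors with MAS5 5.0 per the submitters' processing notes. These sources do not state the scaling target. Of the arrays 11 shared a trimmed mean near 150.04 and 3 did not, and all were brought to 150.04. Signals were tested as log2(signal + 16), leaving out the lowest 40% of probe sets by mean, with limma 3.58.1 in R 4.3.3: means of 7 groups, moderated variances with an intensity trend (7 residual degrees of freedom) and Benjamini-Hochberg adjustment over 13575 probe sets. Figures were drawn with matplotlib 3.10.9. The number of arrays limits the precision. The model was tested on simulated data.

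Of 22690 probe sets 20393 had 1 gene symbol, 691 several and 1606 none. A gene is represented by its single-symbol probe set with the highest mean. Text names the 20 largest rises and all falls among such genes whose groups do not overlap, other called genes by their change, up to 4 members of each list, 8 fixed genes, and for the other comparisons the 5 largest or the 5 smallest p. Genes outside this rule are marked as picked with their values known. Members, lists and tests were chosen with earlier results of these data known.

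Replicate numbers in the titles did not pair the arrays: over 21 pairs of groups the correlation of deviations was -0.256 to 0.351, above 0.1 in 5. Alternatives covered the constant, the filter, the scaling, the variance model, the arrays in the fit and single arrays. Leaving out single arrays of groups outside the comparison was added after seeing the data.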

Additional observations from a re-analysis of the deposited data

Results flagged for a closer look

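For several genes called against control, estradiol day 6 also differed from another treated group by limma's test of that difference, at an adjusted p under 0.05. These tests share the estradiol day 6 arrays with the comparison against control. Against genistein day 6 the log2 differences were 2.18 for Malat1, 1.47 for Trgv1, 1.45 for Lifr, 1.44 for Iglv1, 1.15 for Ufsp1, 1.12 for Cmah, 0.925 for Aldh1l1, 0.833 for Hpgd, 0.826 for Zmiz2, 0.702 for Tbata and 0.692 for Crip3. At probe sets other than the brightest they were 1.6 for Nktr, 1.54 and 1.35 for Ighm, 1.05 for Trgv4 and 0.866 for Gbp2. Against estradiol day 3 the differences were 1.95 for Ighm, at a probe set other than its brightest, and 1.52 for Iglv1. All were higher at estradiol day 6.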

How the results depend on the processing

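The 89 probe sets called against control became 44 with no filter on low values, 29 with the values as deposited, 27 when only the compared groups were fitted and 38 when the differently scaled arrays were left out. Leaving out single arrays gave 0 to 367, and 53 without either array of estradiol day 3. The 36 against genistein day 6 became 17 with a constant of 1, 6 as deposited, 2 with only the compared groups, 16 without the arrays at another scale and 0 to 67 without single arrays. The 3 against estradiol day 3 became 0 with the lowest 60% left out, 13133 as deposited, 9 with only the compared groups and 0 to 1 without single arrays. The 0 against estradiol day 2 became 86 as deposited and 0 to 5 without single arrays. The deposited scale itself shifts days 2 and 3. With the replicate block the counts were 69 against control, 0 against day 2, 4 against day 3 and 15 against genistein day 6; the numbers did not pair the arrays. Other probe sets reversed the direction for Tsc22d3 (-0.0865), Igfbp5 (-0.67), Sirpa (-0.11) and Csf1r (-0.0911). Of the 57 genes called by their brightest probe set, 47 were called without control replicate 1, 7 without control replicate 2, 5 without estradiol day 6 replicate 1 and 0 without estradiol day 6 replicate 2. The median kept 1 sign in 38 of 41 lists. Dim genes such as Cd7 and Slc2a4 are limited by their control signals, which lie below the constant.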
